A study of Rattus norvegicus with 252 samples.

Results

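Striatum-enriched genes are described here: 92 genes whose RNA was at least 4-fold higher in the striatum than in the cortex, the hippocampus and the cerebellum of wild-type (WT) rats of 2 months. They were chosen on the 40 WT libraries of 2 months, from 15776 genes with a mean count of 10 or more among 32883 listed. The rule asked for a mean log2 CPM (counts scaled to the library total, with TMM factors) of 0 or more in striatum and a difference of 2 or more on that scale to each other tissue. It was met by 98 genes, of which 6 were left out under a fixed list of identifiers, and the remaining 92 are followed below. The tissue difference of the WT libraries of 2 months is therefore a description of how the genes were selected and is not a finding. The files list genes by Ensembl rat identifiers without symbols, and 0 of these identifiers matched the RefSeq gene table, so identifiers are printed as deposited and no function is given for single genes.

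The study sequenced RNA of 4 brain regions, namely striatum, cerebellum, hippocampus and cortex, in Long Evans rats that were WT or carried 1 copy of the Q130 knock-in allele (labelled Q130 KI Het and called Q130 here). Animals were 2, 6 or 12 months old, and each of the 24 combinations of tissue, genotype and age held 10 libraries, 5 from females and 5 from males. The 60 animals each gave all 4 tissues, and 12 striatal RNAs of males of 2 and 6 months were sequenced again in batch 2. All first libraries of 2 and 6 months belong to batch 1 and all libraries of 12 months to batch 2. Age and batch therefore cannot be told apart between 12 months and the younger ages, except in the repeat libraries. The labels name no other allele or treatment. They do not say how many litters or founder lines the animals came from, and p-values below measure the spread between these animals only. Most first parts of the animal identifiers held both genotypes at 2 months. Nearly all held 1 genotype at 6 months, and all did at 12 months. What this part marks is not stated, so at 12 months it cannot be told apart from genotype.

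The striatum is built mostly of medium spiny neurons, GABAergic projection neurons that receive input from the cortex and dopaminergic midbrain neurons. In Huntington disease, caused by a lengthened CAG repeat in the huntingtin gene, these neurons are lost earlier and more heavily than most others. Transcripts enriched in the striatum are known to fall in many animal models of the disease, which makes such a list a common readout of them. Striatal marker genes could not be looked up here by symbol, so the tissue of each library was checked on the whole profile instead.

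Total counts per library ran from 25.3 M to 50.8 M with a median of 34.3 M. With the 98 selected genes left out, 9 of the 240 study libraries had a median correlation under 0.97 with the libraries of their own tissue and are called libraries that stand apart. The striatal library of male 1 of the Q130 group at 6 months had correlations of 0.986 with hippocampus and 0.944 with striatum. A hippocampal library of the same animal, Q130 male 5 at 6 months in that tissue's numbering, had 0.983 with striatum and 0.938 with hippocampus. By profile these 2 libraries look exchanged, which no label records, so 6-month values with all libraries may rest on RNA of the other tissue. Among the other striatal libraries, Q130 male 3 at 12 months reached 0.859 with its own tissue, the lowest value of all, and Q130 female 2 at 12 months reached 0.962, against 0.978 with hippocampus. The remaining 5 were WT male 4 of 6 months and Q130 male 4 of 12 months in cortex, Q130 male 3 of 6 months in hippocampus, and Q130 males 1 and 2 of 2 months in cerebellum. All labels were kept, and results that rest on these libraries are given with and without them. All 3 striatal libraries that stand apart are from Q130 animals.

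Levels per transcript length are given as TPM, which has the same total in every library. In WT striatum of 6 months, libraries that did not choose the genes, mean TPM ran from 0.694 to 823 with a median of 8.18. By level, 11 genes were at 100 TPM or more, 29 between 10 and 100, 47 between 1 and 10, and 5 under 1. ENSRNOG00000019857 was the most abundant, at 823 ± 67.5 TPM in striatum, 104.6 ± 6.35 in hippocampus, 49.4 ± 10.6 in cortex and 6.98 ± 2.00 in cerebellum (SD, n = 10 each). ENSRNOG00000028348 had the largest distance to the next tissue, at 8.13 ± 0.852 TPM in striatum and 0.0804 ± 0.0788 in cortex (SD, n = 10 each). For 37 of the 92 genes all 3 other tissues lay under 1 TPM. Together the 92 genes made up a median of 0.543% of all TPM in WT striatum of 6 months, 0.063% in cortex and 0.0542% in hippocampus.

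**Figure D1:**
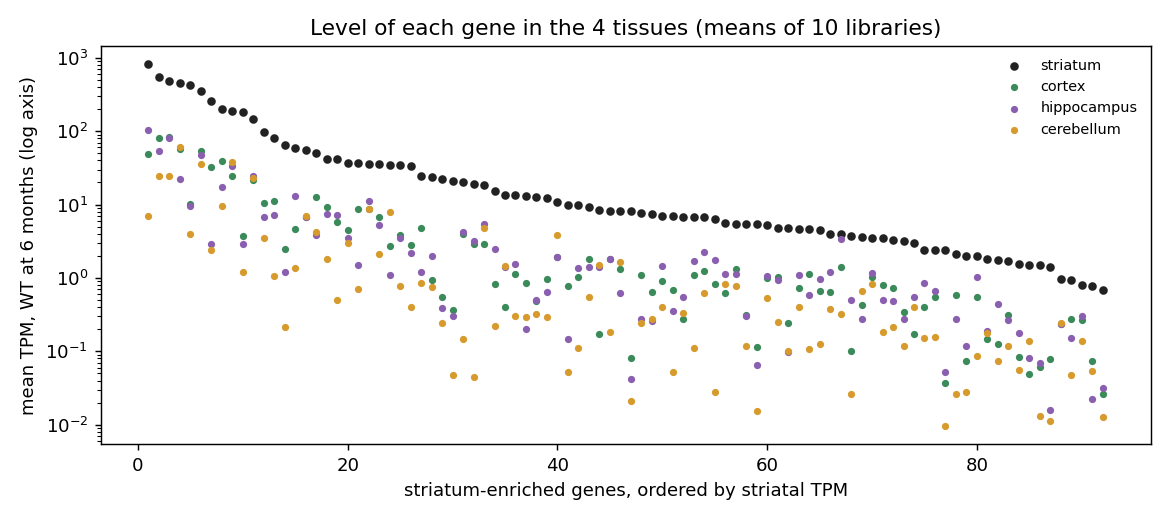
Mean TPM of each of the 92 genes in WT rats of 6 months (log axis), in striatum, cortex, hippocampus and cerebellum, with genes ordered by striatal level from 823 to 0.694. Each point is a mean of 10 libraries; the striatal series lies above the others along the whole order.

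The tissue nearest to striatum at 2 months was cortex for 44 genes, hippocampus for 41 and cerebellum for 7. The difference to that next tissue ran from 2.00 to 6.39 on the log2 CPM scale, with a median of 2.83, and 13 genes exceeded 4. At the threshold, the last genes inside had differences of 2.00, 2.02 and 2.03 and the nearest genes outside had 1.999, 1.99 and 1.98. In WT libraries of the older ages the median difference was 2.80 at 6 months and 2.78 at 12 months, and 80 and 78 of the 92 genes again met the rule. The rule applied at each age alone gave 97 genes at 6 months and 96 at 12 months, and 74 genes met it at all 3 ages.

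The enrichment was tested in libraries that the rule did not use, against a 2-fold difference from each other tissue (edgeR's TREAT test within animals, adjusted p under 0.05 in all 3 contrasts). In WT rats of 6 months 89 of 92 genes were called, against 1.73% of all genes tested, and in WT rats of 12 months 89 of 92, against 1.88%. In Q130 rats of 2 months 89 of 92 were called, against 1.81%. In Q130 rats of 6 months 82 of 91 tested genes were called, against 0.803%, and without the libraries that stand apart 88 of 91, against 1.82%. In Q130 rats of 12 months the counts were 87 of 92 (background 1.12%) with all libraries and 89 of 92 (1.69%) without those that stand apart. Most of the genes were thus striatum-enriched in both genotypes and at every age.

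The 3 genes not called in WT rats of 6 months were ENSRNOG00000050855, ENSRNOG00000004860 and ENSRNOG00000051734. They varied widely between animals of 1 group. For ENSRNOG00000004860, CPM in WT striatum of 6 months had a lowest value of 0.0384, a median of 5.51 and a highest of 32.3, and in WT hippocampus of 12 months 0.224, 4.30 and 23.5, so the tissues overlapped. For ENSRNOG00000050855, WT hippocampus of 12 months (median 2.16 CPM) lay above WT striatum of 12 months (median 0.828), a difference to the next tissue of -1.35 on the log2 scale where it had been 2.71 at 2 months. Fractional estimated counts close to 0 in some libraries and several CPM in others make these genes uncertain.

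The mean log2 CPM over the 92 genes gives a summary of each library. In striatum it ran from 3.81 to 4.07 in the 10 WT libraries of 2 months, with a median of 3.90, and from 3.83 to 4.11 in the Q130 libraries, with a median of 4.06. In WT cortex of 2 months the median was 0.47 and in WT hippocampus 0.30. The 3 striatal libraries that stand apart had means of 0.35, 2.25 and 2.69, and 89, 87 and 77 of the 92 genes in them lay below the lowest WT library of their age. The share of all genes below it is not given here. These libraries differ over the whole profile, so the counts describe them and are not a result about the set. The hippocampal library of Q130 male 5 at 6 months had a mean of 3.79, above the lowest of the other Q130 striatal libraries of that age, at 3.65, and above the other 9 hippocampal libraries, of which the highest had 0.61.

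**Figure D2:**
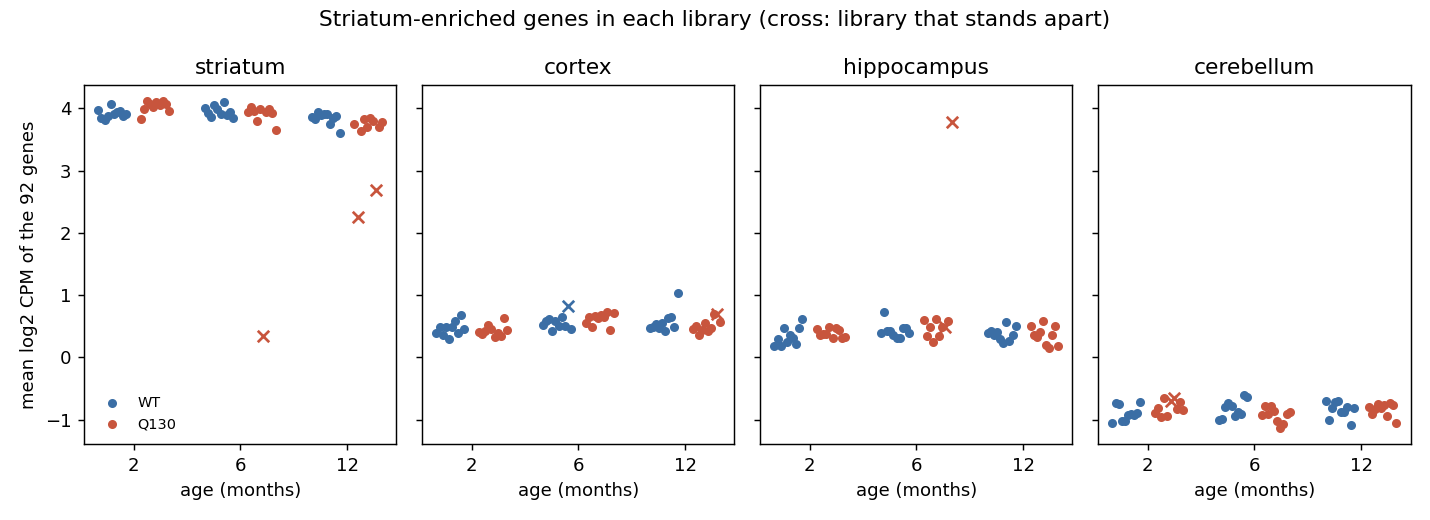
Mean log2 CPM of the 92 genes in each of the 240 study libraries, by tissue, age and genotype (points: libraries, crosses: the 9 libraries that stand apart). Striatal points lie near 4 apart from 3 Q130 libraries at 0.35, 2.25 and 2.69, and 1 hippocampal Q130 library lies at 3.79.

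At 2 months, 13 of the 92 genes were called between genotypes in striatum, all of them higher in Q130 (edgeR's quasi-likelihood test with sex as a term, Benjamini-Hochberg adjusted p under 0.05 over all genes tested). Of all genes tested, 2.64% were called and 1.11% were called higher. The estimates of 82 of the 92 genes were above 0, with a median log2 fold change of 0.15 against -0.00213 over all genes. At an unadjusted p under 0.05 there were 45 genes, 44 of them higher in Q130, against 19.4% of all genes in either direction. The mean log2 CPM of the set was 3.92 ± 0.07 in WT and 4.03 ± 0.09 in Q130 (SD, n = 10 each), and the genes took a median of 0.534% of TPM in WT and 0.606% in Q130. The WT libraries of this comparison are those that selected the genes, so it is not independent of the rule.

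The changes at 2 months were small: the 13 called genes had log2 fold changes between 0.18 and 0.34. The groups separated completely for 0 of the 92 genes, but also for only 1 of the 15747 genes tested. ENSRNOG00000001701 lay between 13.0 and 20.2 CPM in the WT libraries (median 18.3) and between 16.4 and 27.2 in the Q130 libraries (median 23.0). The Q130 median lay above the highest WT library, while the ranges overlapped, and the log2 fold change was 0.34 ± 0.08 (SE, edgeR adjusted p = 0.0347). ENSRNOG00000055673 had 38.0 to 51.1 CPM in WT (median 44.8) and 39.2 to 67.7 in Q130 (median 54.8). Its log2 fold change was 0.29 ± 0.06 (SE, edgeR adjusted p = 0.0150). The Q130 median exceeded the highest WT value for 17 of the 92 genes, against 4.6% of all genes, and was below the lowest WT value for 0, against 4.14%. Leaving out 1 library at a time gave from 3 called genes (without Q130 male 3) to 21 (without Q130 male 5), and a single fit over the 57 striatal libraries that do not stand apart called 0 at this age (background 0.13%), with 34 at an unadjusted p under 0.05, 33 of them higher, against 15.4% of all genes. The median fold change stayed between 0.13 and 0.17 in all of these single omissions, for which the share of all genes called is not given here.

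Genes enriched in the neighbouring tissues were measured beside this result. The summed CPM of 59 cortex-enriched genes, chosen by the same rule, ran from 223.0 to 274.6 in WT striatum of 2 months (median 241.6) and from 222.0 to 251.6 in Q130 (median 235.9). The sum over 55 hippocampus-enriched genes ran from 167.1 to 214.3 in WT (median 178.4) and from 155.5 to 187.3 in Q130 (median 170.5). For both lists 0 genes were at 0 in all libraries, and their part in the result was not tested. In bulk tissue, fewer cells of a type and less RNA per cell cannot be told apart.

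At 6 months, edgeR called 0 of 91 tested genes between genotypes with all libraries (background 0%), 0 of 92 without the library that stands apart (0.00631%), and DESeq2 and limma-voom also called 0. The median log2 fold change was -0.12 with all libraries and 0.02 without that library, where 50 estimates were higher and 42 lower. At an unadjusted p under 0.05 there were then 5 genes, against 5.56% of all genes. The mean log2 CPM of the set was 3.95 ± 0.08 in WT (SD, n = 10) and 3.91 ± 0.12 in Q130 (SD, n = 9). The negative median with all libraries therefore rested on 1 library.

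At 12 months, 0 of 92 genes were called with all libraries (background 0%) and 0 without the 2 that stand apart (0.00635%); DESeq2 and limma-voom called 0. Estimates were below 0 for 83 genes with all libraries and for 72 without those 2, with medians of -0.26 and -0.09. At an unadjusted p under 0.05 there were 17 genes with all libraries, 16 lower and 1 higher in Q130, against 9.81% of all genes, and 25 without those 2, 22 lower and 3 higher, against 13%. The set's mean log2 CPM ran from 3.61 to 3.95 in the 10 WT libraries (median 3.87) and from 3.63 to 3.84 in the 8 Q130 libraries (median 3.77), and the smallest adjusted p of any of the genes was 0.131. The ranges of the genotypes overlapped for all 92 genes, and they separated completely for only 1 of the 15658 genes tested. The single fit over the 57 libraries called 0 at this age (background 0.0494%), and the single fit over all 60 called 2, 1 of them higher, against 6.98% of all genes. The cortex-enriched sum ran from 206.2 to 253.3 CPM in WT (median 239.6) and from 206.7 to 250.2 in the 8 Q130 libraries (median 222.7). The hippocampus-enriched sum ran from 141.1 to 186.3 CPM in WT (median 174.0) and from 155.0 to 181.3 in the 8 Q130 libraries (median 169.5), and the part of either list in the result was not tested.

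**Figure D3:**
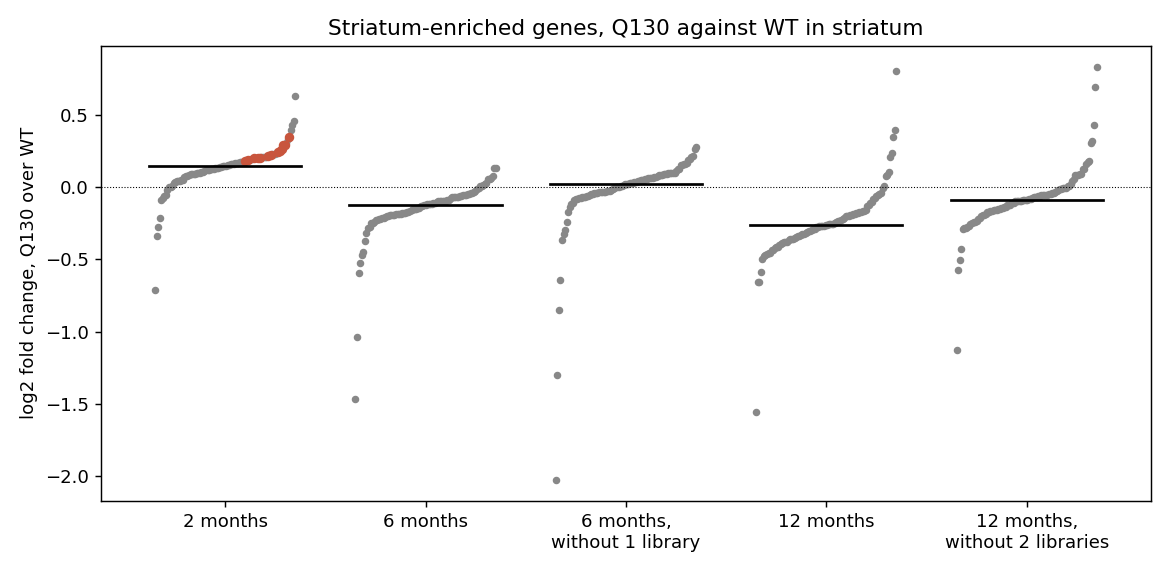
Log2 fold change of each gene, Q130 over WT in striatum, at 2, 6 and 12 months, with genes in order of size and a line at the median (grey: not called; red: adjusted p under 0.05). Medians were 0.15 at 2 months, -0.12 and 0.02 at 6 months with and without 1 library, and -0.26 and -0.09 at 12 months with and without 2 libraries; the 13 red points are all at 2 months.

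The 13 genes called at 2 months had striatal levels between 6.74 and 261 TPM in WT rats of 6 months. At 12 months and without the libraries that stand apart, all 13 had estimates below 0, between -0.25 and -0.05. At 6 months without the library that stands apart, 3 were above 0 and 10 below, between -0.17 and 0.07. These genes were picked on their difference at 2 months, so a lower value elsewhere is described and not tested as a group.

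The difference of the genotype effect between ages was tested as an interaction over the striatal libraries. Contrasts with 2 months use the WT libraries that selected the genes, or repeats of the same animals, so they are not independent of the rule. The contrast of 12 with 6 months compares none of them, though its ages differ in batch. With all libraries it called 0 of 92 genes (background 0%). There 2 had an unadjusted p under 0.05, against 13.6% of all genes, and the median was -0.15. Without those that stand apart it called 0 (0%), with 13 at that p, 11 of them lower (7.79%), and a median of -0.11. In males of batch 2 alone, again without them, it called 0 (0%), with 2 at that p (2.13%) and a median of 0.03. Between 12 and 2 months and without the libraries that stand apart, 12 of 92 genes were called, all with a lower effect at 12 months, against 3.83% of all genes called and 1.69% called lower. The median interaction was -0.24 over the 92 genes and 0.00583 over all genes, and 41 of the 42 genes with an unadjusted p under 0.05 were lower, against 23.6% of all genes at that p in either direction. DESeq2 called 21 and limma-voom 13 on the same libraries, all lower. The shares of all genes that these 2 tools called are not given here, so their counts are not compared with that of edgeR. With all 60 libraries 0 genes were called by any of the 3 tools (edgeR background 1.2%), the median was -0.38 and 14 genes had an unadjusted p under 0.05, against 22.2% of all genes. Of the 12 genes, 7 were among the 13 called at 2 months, and the fits share those libraries.

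ENSRNOG00000027658 had the lowest interaction among the 12. Its CPM in WT striatum had medians of 11.4 at 2 months (9.06 to 15) and 14.4 at 12 months (10.2 to 16.8). In Q130 striatum the medians were 13.5 at 2 months (8.42 to 18.1) and 10.6 at 12 months in 8 libraries (8.03 to 12.4). The Q130 median was above the WT median at the younger age and below it at the older one, and the interaction was -0.58 ± 0.16 (SE, edgeR adjusted p = 0.0336). For ENSRNOG00000055673 the 8 Q130 libraries of 12 months lay between 28.4 and 50.5 CPM (median 41.7) and the WT libraries between 40.1 and 63.3 (median 48.4), and the interaction was -0.54 ± 0.16 (SE, edgeR adjusted p = 0.0475). With all 60 libraries the adjusted p was 0.0838 for the first of these and 0.153 for the second.

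The 2 ages of that contrast lie in different batches, so it was repeated on males of batch 2 alone, with the repeat libraries for 2 months (8 WT and 7 Q130 libraries). There 0 of 92 genes were called (edgeR background 0.00628%), 7 had an unadjusted p under 0.05 (2 lower and 5 higher, against 4.09% of all genes), and the median interaction was -0.07. Males across batches, with 19 libraries, gave 0 called (0.0125%), 26 at an unadjusted p under 0.05 (24 lower, against 14.6% of all genes) and a median of -0.18. The call was thus not obtained within a batch at this sample size. The 12 genes called above all had estimates below 0 in both fits, with medians of -0.19 within batch 2 and -0.39 across batches. They were picked on this contrast and the fits share libraries with it, so their direction is described and not tested. Between 6 and 2 months 0 genes were called with all libraries (0%) and 0 without those apart (0.475%). In the second of these fits 14 had an unadjusted p under 0.05, 13 of them lower, against 13.5% of all genes, a share close to the background. The median there was -0.13 over the 92 genes and 0.0046 over all genes, with 76 estimates below 0 and 16 above.

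The repeat libraries also allowed the genotype comparison at 2 months to be set beside itself in the same 6 males, 3 of each genotype. In the first libraries of these animals 77 genes had estimates above 0, with a median of 0.17, and 27 had an unadjusted p under 0.05, all higher in Q130, against 7.38% of all genes. In the repeat libraries 52 were above 0, with a median of 0.05, and 8 had an unadjusted p under 0.05, 2 higher and 6 lower, against 3.77%. With 3 animals a genotype, 0 of the 92 genes were called in either set (background 0.0127% and 0.0129%). The genotype effect in repeat minus first libraries had a median of -0.11 over the 92 genes and -0.0015 over all genes. None of the 92 was called for it (background 0.00621%, smallest edgeR adjusted p = 0.717), and 14 had an unadjusted p under 0.05, 13 of them lower, against 6.46% of all genes. The set's mean in the 3 Q130 males was 4.10, 4.11 and 3.96 in first libraries and 3.83, 3.99 and 3.96 in their repeats. In the 3 WT males it was 3.95, 3.88 and 3.90 in first libraries and 4.10, 3.79 and 3.89 in their repeats. The first libraries of the genotypes did not overlap on this mean, and the repeat libraries did. That the repeat libraries are the columns taken as such is an inference from column names.

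**Figure D4:**
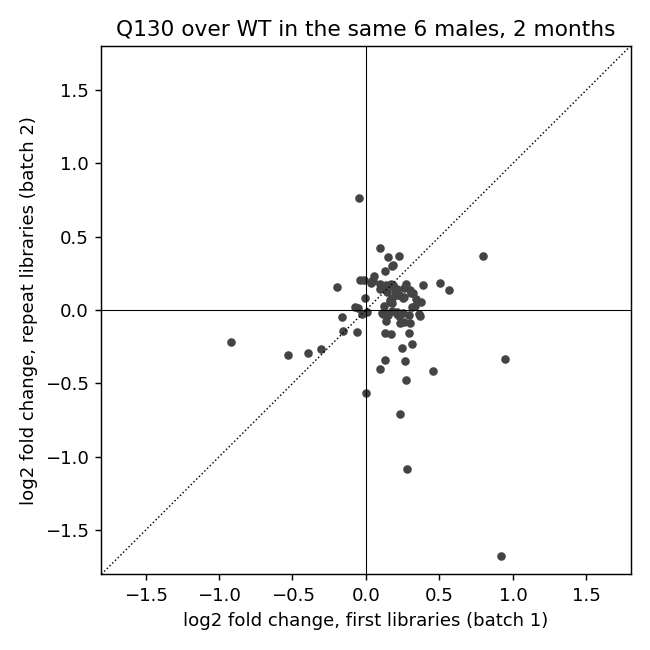
Log2 fold change of each of the 92 genes, Q130 over WT at 2 months, in the first libraries (horizontal) and the repeat libraries (vertical) of the same 6 males; the dotted line marks equal values. Most points lie right of 0 horizontally (77 of 92), while 52 of 92 lie above 0 vertically.

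Age changes were larger than genotype differences for some genes. In Q130 striatum between 2 and 6 months, both in batch 1 and neither used by the rule, 2 of 91 genes were called with all libraries (background 7.59%). Without the 1 library that stands apart 18 of 92 were called, 7 higher and 11 lower at 6 months, against 18.1% of all genes, a share close to the background. The median log2 fold change was -0.13 over the 92 genes and -0.00442 over all genes. In the WT libraries, where the younger age selected the genes, values are given without a test: the median was 0.04, with 51 estimates above 0.

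ENSRNOG00000008046 increased most with age. Its CPM in Q130 striatum ran from 0.996 to 2.41 at 2 months (median 1.92) and from 2.46 to 5.09 at 6 months in 9 libraries (median 3.44), with no overlap between the ages. The log2 fold change was 1.02 ± 0.15 (SE, edgeR adjusted p = 7.81e-05), and 0.89 with all libraries (adjusted p = 0.0401). In WT striatum it had medians of 1.44, 3.20 and 4.41 CPM at 2, 6 and 12 months. ENSRNOG00000026371 rose by 0.69 ± 0.10 (SE) on the log2 scale (edgeR adjusted p = 7.60e-05), from a median of 2.81 CPM (2.21 to 4.34) to 5.01 (3.72 to 5.58). With all libraries its log2 fold change was 0.53 (edgeR adjusted p = 0.242).

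ENSRNOG00000036880 decreased. In Q130 striatum it ran from 8.02 to 9.10 CPM at 2 months (median 8.59) and from 4.65 to 7.21 at 6 months (median 5.96), again with no overlap. Its log2 fold change was -0.50 ± 0.08 (SE, edgeR adjusted p = 8.37e-05), and it was the other gene called with all libraries, at -0.62 (adjusted p = 0.0179). WT medians were 7.37, 5.94 and 4.72 CPM at 2, 6 and 12 months. ENSRNOG00000057072 fell by 0.39 on the log2 scale (SE 0.08, edgeR adjusted p = 0.00104), from a median of 14.5 CPM (12.6 to 17) to 11 (8.54 to 13.1). With all libraries its log2 fold change was -0.50 (edgeR adjusted p = 0.0681). The WT medians of these 4 genes at 2 and 6 months lay in the same direction.

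**Figure D5:**
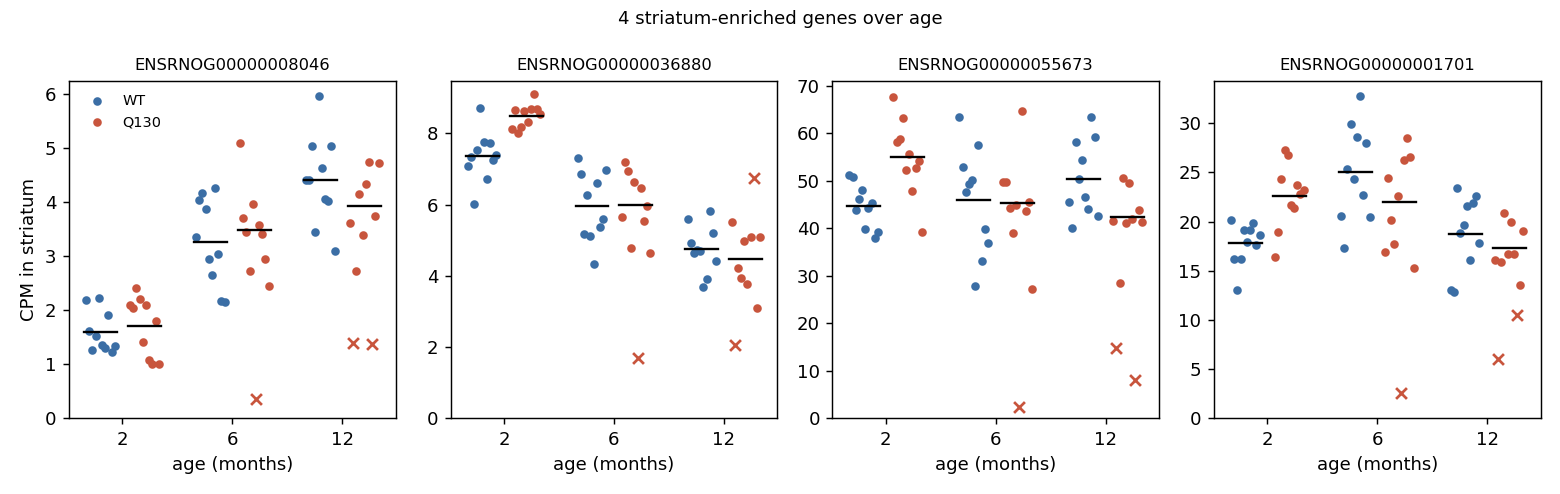
CPM in striatum at 2, 6 and 12 months for 4 of the genes, by genotype (points: libraries, crosses: libraries that stand apart, bars: means of the other libraries). ENSRNOG00000008046 goes from medians of 1.44 to 4.41 CPM in WT and ENSRNOG00000036880 from 7.37 to 4.72, while ENSRNOG00000055673 and ENSRNOG00000001701 were called between genotypes at 2 months.

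Between 6 and 12 months the comparison was made within batch 2, on 10 male libraries of 12 months and 6 repeat libraries of 6 months. With all libraries 1 of 92 genes was called (background 5.17%): ENSRNOG00000023633, with a log2 fold change of -0.39. Without Q130 male 3 of 12 months 12 genes were called, 3 higher and 9 lower at 12 months, against 25.9% of all genes. Within that fit ENSRNOG00000008046 was higher at 12 months, by 0.91 ± 0.19 (SE, edgeR adjusted p = 0.00323), and ENSRNOG00000036880 was lower, at -0.58 ± 0.15 (SE, edgeR adjusted p = 0.0108). The direction of both was that seen between 2 and 6 months. The share of genes called was below that of all genes.

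The batch itself was compared within the 12 animals sequenced in both. Of the 92 genes 2 were called (background 3.87%), both lower in batch 2. The log2 difference was -1.18 ± 0.14 (SE) for ENSRNOG00000028187 (edgeR adjusted p = 0.000266) and -0.64 ± 0.09 (SE) for ENSRNOG00000057031 (edgeR adjusted p = 0.000591). For ENSRNOG00000028187, median CPM in WT striatum was 5.23, 6.15 and 2.99 at 2, 6 and 12 months. In these study libraries the 12-month level differs from the younger ones in both age and batch, which cannot be told apart there. The -1.18 above is a batch difference within animals, at unchanged age. The value of this gene at 12 against 6 months within batch 2 is not given here. The median over the 92 genes was -0.03.

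Outside the striatum the genes were low, and between 51 and 75 of them passed the filter on low counts. With edgeR, 0 were called between genotypes in cortex (background 0.00636%, 0% and 0% at 2, 6 and 12 months), 0 in hippocampus (0% at each age) and 0 in cerebellum at 2 and 6 months (0% and 0.0709%), with DESeq2 and limma-voom also at 0. Between 1 and 20 genes had an unadjusted p under 0.05 in these 8 comparisons. In cortex they were 2 of 70, 8 of 74 and 7 of 71, against 2.33%, 6.22% and 4.13% of all genes. In hippocampus at 2 and 12 months they were 2 of 74 and 7 of 72, against 6.21% and 4.57%. In cerebellum at 2 and 6 months they were 1 of 56 and 5 of 52, against 1.62% and 13.8%. The highest number, 20 of 75, was in hippocampus at 6 months, where 74 estimates were above 0 with a median of 0.70, against 3.36% of all genes. Without the 2 libraries that stand apart the number was 5 of 75, 3 higher and 2 lower, against 4.41%, and the median was 0.00. In cerebellum at 12 months 1 of 51 genes was called (background 1.48%). It was ENSRNOG00000049495, from 0.178 to 0.644 CPM in WT (median 0.308) and from 0.359 to 1.05 in Q130 (median 0.588), a difference of 1.0 ± 0.24 (SE) on the log2 scale (edgeR adjusted p = 0.0411). Its adjusted p was 0.0507 with no filter on low counts.

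No gene of the set was called between females and males in striatum. With edgeR and without the libraries that stand apart, 0 of 92 genes were called at 2 months (background 0.159%), 0 at 6 months (0.441%) and 0 at 12 months (0.693%), and 13, 13 and 7 had an unadjusted p under 0.05, against 12.2%, 12.8% and 13.5% of all genes, so the counts were close to or below the background. No other tool was run for this comparison.

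Between animals of 1 group the genes had a higher median SD than all genes, and they varied partly together. The comparison was not matched on level. Within genotype, age and sex over 57 striatal libraries, the SD of log2 CPM had a median of 0.217 over 91 members at 1 CPM or more and of 0.128 over all 14117 genes at that level. The correlation of a gene with the mean of the other members had a median of 0.438 and exceeded 0.5 for 39 genes, or 42.9%, against 8.80% of 14026 other genes correlated with the mean of the set. It was below 0 for 10 of the genes. The mean of the set correlated at -0.03 with the mean of 20 cortex-enriched genes and at -0.26 with that of 21 hippocampus-enriched genes over the same libraries. Only genes of those lists at 1 CPM or more in these libraries entered, so the correlations do not cover the full lists. These points share library, dissection and depth, and the correlations are given as a description.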

How the data were processed

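The members and lists were chosen with earlier results of these data known. Per the labels' protocols, total RNA from flash-frozen tissue was extracted with a Qiagen kit and made into Illumina libraries; aligner, counting program and genome build: not given in the sources used here. Expected counts were deposited by the authors (estimated counts, 8.19% of them not whole) and were rounded before testing. A second table is named FPKM, but its columns have equal totals as TPM values do, so its deposited values are used as TPM. Transcript tables were not used. Columns written with dots were taken as the repeat libraries of batch 2.

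Levels were TMM log2 CPM (prior count 2, mean count 10 or more). Tests were edgeR 4.0.16 quasi-likelihood tests (R 4.3.3, filterByExpr, TMM, robust), adjusted over all genes at 0.05, with sex as a term between genotypes and between ages. Members left out by filterByExpr have no test. On data simulated for the 2-month comparison of 15658 genes, 58.2% of genes changed 1.2-fold and 83% of those changed 1.5-fold were recovered. DESeq2 1.42.0, limma-voom (limma 3.58.1), no filter, a replicate block and omitted libraries were alternatives. The planned rule for named genes used more genes and symbol-based marker lists; without symbols, at most 2 genes higher and 2 lower by size were named per comparison, beside the most abundant and the most enriched gene and the 3 that failed the tissue test. Several fits (the repeat libraries, batch 2 alone, sex, the 57-library fit) were added after seeing the data.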

Additional observations from a re-analysis of the deposited data

Results flagged for a closer look

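In groups of 10, a library was marked where its gap to the nearest other library exceeded the 95% critical share of the group's range in Dixon's test; chance marks about 1 in 20 groups, and 10 of 60 groups examined were marked. On the mean log2 CPM of the 92 genes, the marked libraries were the striatal library of Q130 male 1 at 6 months at 0.35 (nearest other 3.65), the hippocampal library of Q130 male 5 at 6 months at 3.79 (nearest 0.61), the cortical library of WT male 4 at 6 months at 0.83 (nearest 0.64), the cortical library of WT male 5 at 12 months at 1.03 (nearest 0.65) and the hippocampal library of WT female 2 at 6 months at 0.73 (nearest 0.47). The first 2 come from 1 animal. The last 2 were not among the libraries that stand apart.

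The same striatal library of Q130 male 1 at 6 months was marked for 4 single genes, with 2.59 CPM for ENSRNOG00000001701, 0.305 for ENSRNOG00000026371, 1.70 for ENSRNOG00000036880 and 2.97 for ENSRNOG00000057072, each the lowest of its group. For ENSRNOG00000026371 the Q130 female 4 of 2 months was the highest, at 4.34 CPM (nearest 3.15). By an edgeR interaction test without the libraries that stand apart, the genotype effect in striatum differed between 12 and 2 months for 12 genes. All 12 had a lower effect at 12 months, against 3.83% of all genes called and 1.69% called lower. The test uses the WT libraries that selected the genes, and its ages lie in different batches. With all libraries 0 genes of the set were called, against 1.2% of all genes. In males of batch 2 alone, without the libraries that stand apart, 0 were called, against 0.00628%. That fit has fewer libraries.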

How the results depend on the processing

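At 2 months the 13 genes called in striatum became 23 with DESeq2, 12 with limma-voom, 10 with no filter on low counts, 3 with a tissue difference of at least 3 in the rule, and 0 in a single fit over all 60 striatal libraries or over the 57 that do not stand apart; every call was for higher levels in Q130. The first and repeat libraries of 6 males called 0 each, with a median of 0.049 in the repeats. Leaving out 1 library gave 3 to 21 calls. At 6 months the median moved to -0.36 with limma-voom and to 0.019 without the library that stands apart (0.018 in the 57-library fit; single omissions: -0.18 to 0.019). At 12 months the median was -0.088 without the 2 that stand apart (-0.090 in the 57-library fit), and the 60-library fit called 2 genes. In cerebellum at 12 months the 1 call became 0 with no filter. Q130 striatum at 6 against 2 months had 2 calls, 1 with limma-voom or no filter and 18 without the library apart (single omissions: 1 to 18). At 12 against 6 months in batch 2 the 1 call became 4 with DESeq2, 2 with limma-voom, 0 with no filter, 0 in WT or Q130 libraries alone and 12 without Q130 male 3 (single omissions: 0 to 12). Batch 2 against batch 1 gave 5 with DESeq2. The 12 minus 2 months interaction had 0 calls with all libraries, and 12 (edgeR), 21 (DESeq2) and 13 (limma-voom) without those apart; the 6 minus 2 months one had 1 with DESeq2 without them. With a tissue difference of at least 3 (40 genes) 38 to 39 members passed the tissue test, and with 1.5 (169 genes) 131 to 162, that is 155 in WT at both ages, 162 in Q130 at 2 months and 131 in Q130 at 12 months. Apart from the shares given above, the share of all genes called under each setting is not given here. A higher or lower count therefore does not show a stronger or weaker result for the set. The cause of these moves was not tested.

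Same-numbered WT and Q130 animals are different animals, and their number is not a known pairing. There were 10 pairs an age. Correlations of their deviations ran from -0.10 to 0.07 at 2 months, -0.19 to 0.40 at 6 and -0.13 to 0.09 at 12. They exceeded 0.1 for 0, 3 and 0 pairs, and 0, 4 and 1 animals were closest to their own number. Some same-numbered animals of 6 months were thus alike. With a replicate block the counts were 8 at 2 months and 0 in cerebellum at 12 months, the 6-month median was -0.26, and the other striatal, cortical, hippocampal and cerebellar counts of called members stayed at 0. At these depths a 1.2-fold change was often missed in simulated data, so a count of 0 does not show equal levels.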

Other observations

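ENSRNOG00000036880, which was among the 13 genes called higher in Q130 striatum at 2 months (a log2 difference of 0.20 ± 0.06, SE, with edgeR adjusted p = 0.0480), had estimates of opposite sign in the paired libraries of the same 6 males. The estimate was 0.27 ± 0.11 (SE) in the first libraries and -0.47 ± 0.14 (SE) in the repeat libraries, with edgeR adjusted p of 0.649 and 0.995. ENSRNOG00000057072, the other gene named for a lower level at 6 than at 2 months, had 0.10 ± 0.09 (SE) and -0.40 ± 0.14 (SE) in the same pair of fits. The genotype effect in repeat minus first libraries was -0.74 ± 0.18 (SE, edgeR adjusted p = 0.717) for ENSRNOG00000036880 and -0.50 ± 0.17 (SE, edgeR adjusted p = 0.736) for ENSRNOG00000057072, so neither was called. Both were picked here after their values were seen.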
